A study of Macaca mulatta with 2 samples.

Results

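Synaptic vesicle and release genes encode the proteins with which a nerve terminal stores transmitter in vesicles, docks them at the membrane, fuses them on a calcium signal and recovers the membrane afterwards. The 41 genes described here were selected on their role at the synapse, from a list of symbols written with earlier results of these data known, and all 41 were found among the 16684 genes of the deposited table. The levels that follow are therefore a description of these genes and not a test of the choice. RNA came from optic nerves of wild-type, untreated rhesus macaques, *Macaca mulatta*, and was sequenced in 2 libraries, Rep1 and Rep2, of 1 condition. The design text names 2 animals, whereas the methods describe the nerves as those of a 12-year-old male that had been collected after death, so the libraries may be nerves of 1 animal. Values are in TPM, for which the authors divided the reads of a gene by its length and scaled each library to the same total of transcripts, so that levels can be compared between genes. With 2 libraries of 1 condition there was no group to compare, and p-values were not computed.

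In a chemical synapse, vesicle fusion is driven by SNARE proteins, which zip together between the vesicle and the plasma membrane. Synaptotagmins sense calcium, complexins clamp and promote fusion, and scaffold proteins of the active zone hold vesicles next to calcium channels. Photoreceptors and bipolar cells of the retina release glutamate at ribbon synapses, which use partly different paralogs, such as complexin 3 and 4 and syntaxin 3. The optic nerve itself carries the axons of retinal ganglion cells among oligodendrocytes and astrocytes, whereas the cell bodies of these neurons lie in the retina and their terminals in the brain.

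The libraries differed in depth and content, which bears on every value below. A single read weighed 17.2 times more on the TPM scale in Rep1 than in Rep2. This constant gave whole read numbers for 99.9% of the 10168 genes above 0 in both libraries. The smallest read numbers that fit a gene are lower bounds. Read numbers that share a common factor reduce to a bound that can lie far below the reads counted. A low bound therefore does not show that a value rests on few reads. These bounds are given below for many of the members with large ratios. They are also given for the members and named genes where the bound was 5 reads or fewer. No bound could be had for a gene at 0 in a library. Rep1 had 61.5% of the listed genes above 0 and Rep2 had 87.5%, with 60.9% above 0 in both. Over all listed genes the median level was 2.09 TPM in Rep1 against 7.93 TPM in Rep2. The myelin and other oligodendrocyte markers, 8 of 8 at least 2-fold lower in Rep1, made up 4.60% of the Rep1 total and 21.2% of the Rep2 total. In bulk RNA, fewer cells of a type and less RNA per cell cannot be told apart.

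Of the 41 genes, 32 were above 0 in both libraries, 8 were above 0 in Rep2 only and 1 was listed at 0 in both. Together they took 5554 TPM in Rep1 compared with 822 TPM in Rep2, or 0.555% and 0.0822% of each library, a ratio of 6.76. Their median level was 14.3 TPM in Rep1 versus 3.17 TPM in Rep2, so that they were above the median listed gene in Rep1 and below it in Rep2. In the plot of levels by role, the Rep1 points of *SNAP25*, *VAMP2*, *SYT1* and *NSF* lie farthest to the right.

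**Figure D1:**
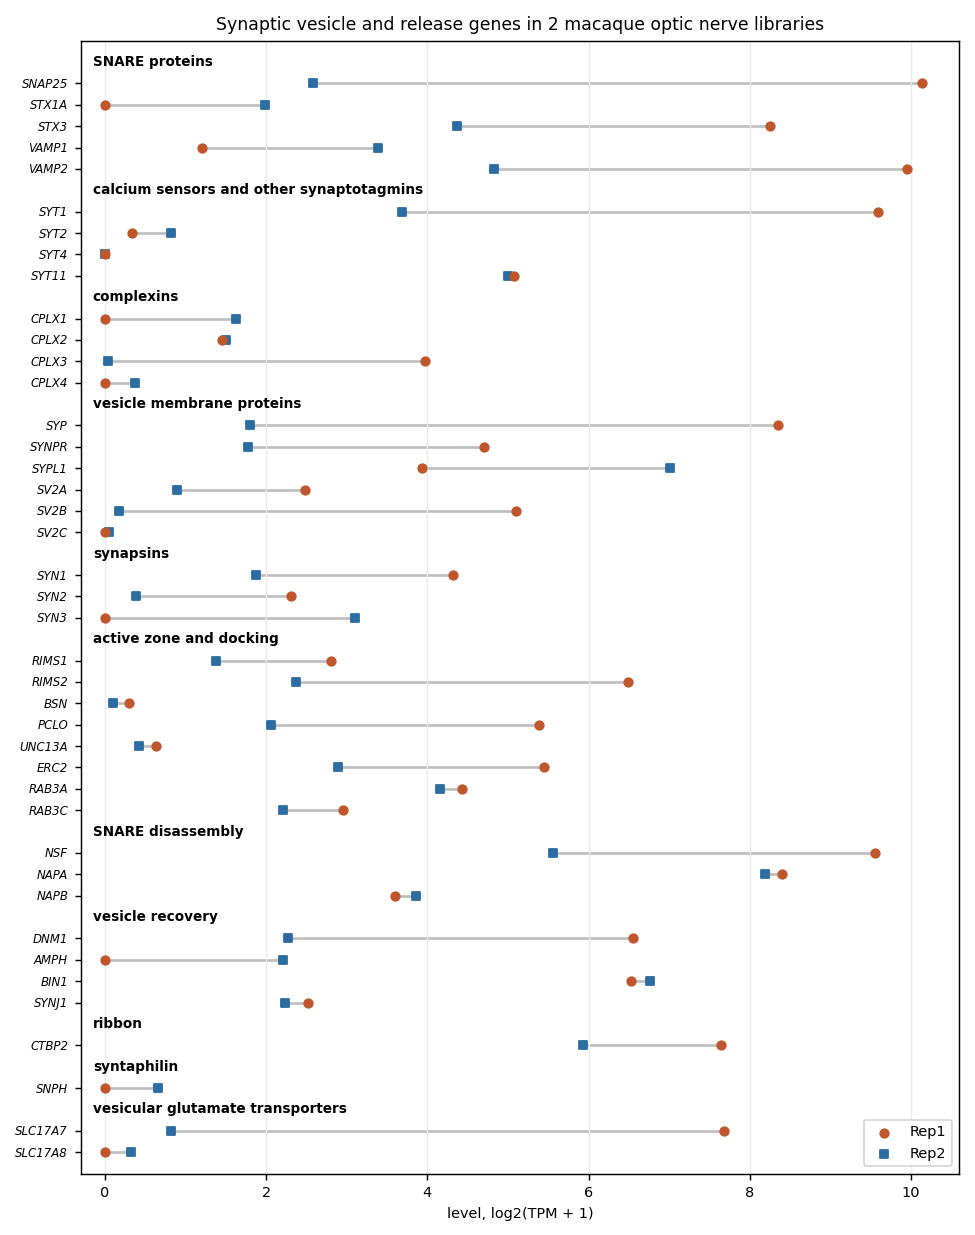
Level of each of the 41 synaptic vesicle and release genes on the log2(TPM + 1) scale, grouped by role, with circles for Rep1, squares for Rep2 and a grey line between them (1 point per library, no error bars). *SNAP25* lies at 1122 TPM in Rep1 against 4.99 TPM in Rep2, whereas *NAPA*, *BIN1* and *SYT11* lie at nearly the same level in both.

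Among the 40 genes above 0 in a library, 19 (47.5%) were at least 2-fold higher in Rep1 on the log2(TPM + 1) scale, which understates differences of low genes. Over all 14693 genes above 0 in a library the share was 14.8%. In the other direction, 6 of the 40 (15%) were at least 2-fold higher in Rep2, against 51.3% of all genes. The remaining 15 differed by less than 2-fold. In all, 26 of the 40 were higher in Rep1, against 24.1% of all genes. The median difference (Rep1 minus Rep2) was 0.52 for these genes and -1.07 for all genes. Keeping only genes that averaged 1 TPM or more left 33 of the 40, with the same counts of 19 and 6, beside 18.2% and 58.7% of all such genes. After scaling Rep1 to Rep2 by the median of ratios, which multiplies Rep1 by 2.28, 24 of the 40 were at least 2-fold higher in Rep1 and 6 in Rep2, beside 24.4% and 37% of all genes. On that scale the median difference was 1.62 for these genes and -0.47 for all genes. The 5 genes added were *NAPA*, *SYT11*, *RAB3A*, *RAB3C* and *SYNJ1*, and *BIN1*, *NAPB* and *CPLX2* changed from slightly lower to higher in Rep1 (0.95, 0.86 and 0.82 on the log2 scale), so that near-equal TPM, where stated below, holds for the values as deposited.

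On the same log2(TPM + 1) scale, differences of at least 16-fold toward Rep1 were seen in 8 of the 40 genes and in 1.61% of all genes. These 8 were *SNAP25*, *SLC17A7*, *SYP*, *SYT1*, *VAMP2*, *SV2B*, *DNM1* and *RIMS2*. *NSF* and *CPLX3* fell under this limit although their ratios of TPM, without the added 1, were 16.3 and 533; ratios printed below are of TPM. To set a difference against the spread between the libraries, the SD of a single library was taken from the 200 genes nearest in mean level, and it ran from 0.040 to 2.18 on the log2 scale across the 40 genes. By this measure 5 genes, *SNAP25*, *SLC17A7*, *SYP*, *SYT1* and *VAMP2*, were at least 2 SDs of a difference apart, compared with 1.46% of all genes. At the other end, 8 of the 40 genes were listed at 0 in Rep1 and above 0 in Rep2, compared with 30.2% of all genes.

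**Figure D2:**
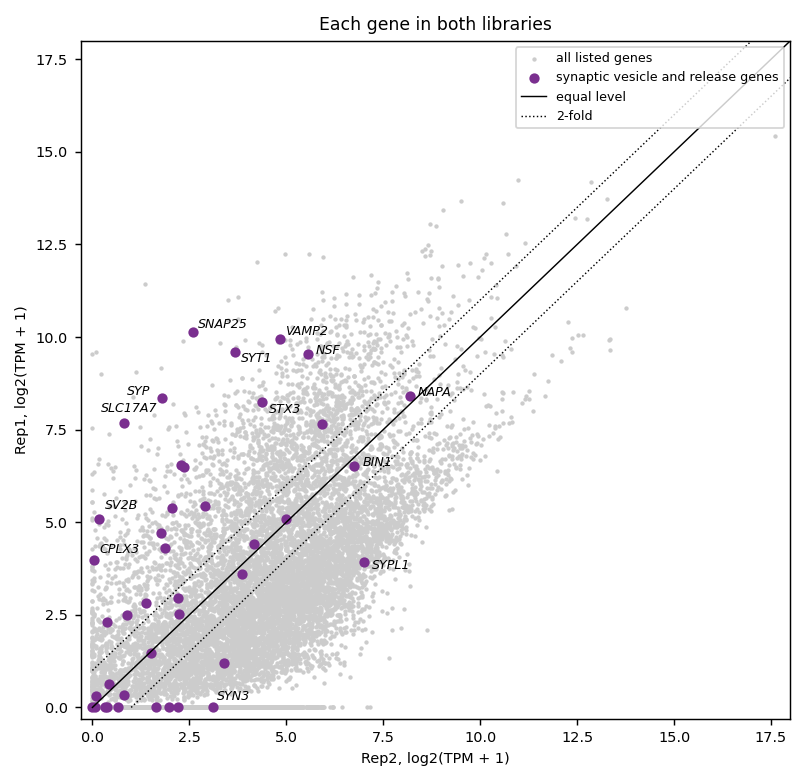
Each of the 16684 listed genes by its level in Rep2 (x axis) and Rep1 (y axis), both as log2(TPM + 1), with the synaptic vesicle and release genes in purple and the others in grey; the solid line marks equal levels and the dotted lines 2-fold differences. Of the 40 purple genes above 0, 19 lie on or above the upper dotted line and 6 on or below the lower one.

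The SNARE proteins included the 2 highest genes of the group in Rep1. *SNAP25* encodes the plasma membrane SNARE that contributes 2 of the helices of the fusion complex, and its gene spans 56248363 to 56335596 of chromosome 10 (minus strand, Mmul_10). It stood at 1122 TPM in Rep1, on at least 1164 reads, and at 4.99 TPM in Rep2, on at least 89 reads. The ratio was 225 and the mean 563 ± 789 TPM (SD, n = 2 libraries). It was the highest of the 41 genes in Rep1, at percentile 99.1 of the genes above 0 in a library, and the 15th in Rep2, at percentile 36.1.

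*VAMP2*, the vesicle SNARE also called synaptobrevin 2 (chromosome 16, 7960846 to 7964678), was at 989 TPM in Rep1 compared with 27.4 TPM in Rep2, a ratio of 36.1, on at least 589 and 280 reads. *VAMP1*, a second vesicle SNARE, had the opposite order, with 1.31 TPM in Rep1 versus 9.46 TPM in Rep2, but the bound on its Rep1 reads was only 1. *VAMP2* was the higher vesicle SNARE in both libraries. The plasma membrane syntaxins also differed. *STX3*, the syntaxin of ribbon synapses, was at 304 TPM in Rep1 against 19.6 TPM in Rep2, with a minimum of 315 and 349 reads. *STX1A*, the syntaxin of conventional synapses, was listed at 0 in Rep1 and reached 2.96 TPM in Rep2. *STX3* was thus above *STX1A* in each library.

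Among the synaptotagmins, *SYT1*, the calcium sensor for fast release, was at 769 TPM in Rep1 compared with 11.8 TPM in Rep2, on at least 559 and 148 reads. It lies on chromosome 11 from 78464658 to 79062480. *SYT11*, which does not bind calcium and is also expressed by glia, hardly differed, with 32.8 TPM in Rep1 versus 31.0 TPM in Rep2 (31.9 ± 1.30 TPM, SD, n = 2). *SYT2*, another fast sensor, was low, with 0.260 TPM in Rep1, on at least 2 reads, against 0.763 TPM in Rep2. *SYT4* was listed at 0 in both libraries and is the only one of the 41 genes without a value above 0. *SYT1* took 95.9% of the TPM of the 4 synaptotagmins in Rep1, whereas *SYT11* took 71.1% in Rep2.

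The complexins, small proteins that bind the assembled SNARE complex, had low levels apart from *CPLX3* in Rep1. *CPLX3*, the ribbon synapse complexin (chromosome 7, 51866208 to 51870215), was at 14.7 TPM in Rep1, on at least 31 reads, and at 0.0276 TPM in Rep2, where the bound was 1 read. *CPLX4*, the other complexin of ribbon synapses, did not follow it, being listed at 0 in Rep1 and at 0.296 TPM in Rep2. *CPLX1*, a complexin of conventional synapses, was listed at 0 in Rep1 and at 2.09 TPM in Rep2. *CPLX2* was at 1.74 TPM in Rep1 compared with 1.83 TPM in Rep2, the first of these on at least 1 read. The leading complexin was therefore *CPLX3* in Rep1, with 89.4% of the family, and *CPLX1* in Rep2, with 49.3%.

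Among proteins of the vesicle membrane, 4 of 6 were at least 2-fold higher in Rep1 and 1, *SYPL1*, in Rep2, beside 14.8% and 51.3% of all genes. *SYP*, encoding synaptophysin, an abundant vesicle protein of neurons (chromosome X, 49174837 to 49187091), was at 325 TPM in Rep1 versus 2.48 TPM in Rep2, a ratio of 131, on at least 282 and 37 reads. *SYPL1*, its paralog found in many cell types outside the nervous system, was at 14.3 TPM in Rep1 against 127 TPM in Rep2, on at least 8 and 1225 reads. *SYP* accounted for 89.2% of the 3 physins in Rep1 and 1.87% in Rep2, and *SYPL1* for 3.93% and 96.3%. *SYNPR*, encoding synaptoporin, was at 25.02 TPM in Rep1 compared with 2.43 TPM in Rep2, on at least 3 and 5 reads.

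The SV2 glycoproteins, which act on vesicle priming, were led by *SV2B* in Rep1 and by *SV2A* in Rep2. *SV2B* was at 33.3 TPM in Rep1 versus 0.130 TPM in Rep2, a ratio of 255 that rests on at least 104 and 7 reads. *SV2A* was at 4.59 TPM in Rep1 against 0.864 TPM in Rep2. *SV2C* was listed at 0 in Rep1 and at 0.0382 TPM in Rep2. In the annotation, 647 bases (9.6%) of the *SV2B* exons are shared with an uncharacterized gene of the other strand, and use of strand in the counting is not given in the sources used here.

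The synapsins tether vesicles into a reserve pool. *SYN1* was at 18.9 TPM in Rep1 compared with 2.65 TPM in Rep2, on at least 61 and 147 reads, and *SYN2* at 3.96 TPM and 0.308 TPM on at least 3 and 4 reads. *SYN3* was listed at 0 in Rep1 and at 7.61 TPM in Rep2, so that it took 72.0% of synapsin TPM in Rep2 and none in Rep1. The exons of *SYN1* and *SYN3* share 19 and 2 bases with *ARAF* and *FBXO7* on the opposite strand.

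The promoters of *SYN1* and *UNC13A* are shown because they were the only members whose start region held the letters of the RE1 element, the site bound by the repressor REST in many neuronal genes. The windows ran from 250 bases before to 50 after the annotated gene start, in Mmul_10, for 21107 protein-coding genes. The left part of RE1, TTCAGCACC, was searched on both strands and occurred in 0.403% of all windows, and the right part, GGACAGCG, in 1.60%. At least 1 of them occurred in 1.97% of all windows and in 2 of the 41 member windows, and both of these windows held both. In *SYN1* (chromosome X, minus strand) they lie from position -132 to -114, 2 bases apart, and in *UNC13A* (chromosome 19, minus strand) from 19 to 43 on the opposite strand, 8 bases apart. The sequences read 5′ to 3′ along the gene, with both parts in capitals.
*SYN1*, chrX:47568537-47568655: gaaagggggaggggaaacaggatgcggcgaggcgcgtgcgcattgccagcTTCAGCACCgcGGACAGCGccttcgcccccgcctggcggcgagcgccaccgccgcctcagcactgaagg
*UNC13A*, chr19:17201054-17201078: CGCTGTCCgcgcccccGGTGCTGAA
These letters are a description of the sequence and not evidence of binding. *SYN1* was at least 2-fold higher in Rep1, whereas *UNC13A*, a priming factor, was low in both libraries, at 0.558 TPM in Rep1, on at least 3 reads, versus 0.335 TPM in Rep2.

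All 8 genes of the active zone and of docking were above 0 in both libraries and higher in Rep1, 4 of them at least 2-fold. Over all listed genes, 60.9% were above 0 in both. Among all genes above 0 in a library, 24.1% were higher in Rep1 and 14.8% at least 2-fold higher. *RIMS2*, a scaffold that links vesicles to calcium channels, was at 88.6 TPM in Rep1 against 4.17 TPM in Rep2, on at least 167 and 135 reads. Its paralog *RIMS1* was at 5.998 TPM and 1.61 TPM, in Rep1 on at least 5 reads. *PCLO*, encoding the giant scaffold piccolo, was at 40.6 TPM in Rep1 compared with 3.17 TPM in Rep2, and *ERC2*, encoding another active zone scaffold, at 42.6 TPM and 6.42 TPM. *BSN*, encoding bassoon, the partner of piccolo in size and place, did not share these levels, with 0.235 TPM in Rep1, on at least 2 reads, versus 0.0752 TPM in Rep2.

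The small GTPases that bring vesicles to the membrane differed by less than 2-fold. *RAB3A* was at 20.5 TPM in Rep1 against 16.9 TPM in Rep2, or 18.7 ± 2.55 TPM (SD, n = 2). *RAB3C* was at 6.74 TPM in Rep1, on at least 4 reads, compared with 3.63 TPM in Rep2. The share of *RAB3A* in the pair was 75.3% in Rep1 and 82.3% in Rep2.

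*NSF* and the SNAP adaptors take spent SNARE complexes apart and serve membrane fusion in all cells. *NSF* (chromosome 16, 57231609 to 57393617) was at 749 TPM in Rep1 versus 46.0 TPM in Rep2, a ratio of 16.3, on at least 55 and 58 reads. *NAPA*, encoding alpha-SNAP, was at 337 TPM in Rep1 against 290 TPM in Rep2, or 313 ± 32.9 TPM (SD, n = 2), and was the highest of the 41 genes in Rep2. *NAPB*, the neuronal beta-SNAP, was at 11.1 TPM in Rep1 compared with 13.6 TPM in Rep2. The partners of this step thus stood apart, with a ratio of 16.3 for *NSF* and of 1.16 for *NAPA*.

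For membrane recovery, *DNM1*, the neuronal dynamin that pinches off vesicles, was at 93.1 TPM in Rep1 versus 3.84 TPM in Rep2, on at least 281 and 199 reads. *BIN1*, an amphiphysin also made by oligodendrocytes and muscle, was at 91.3 TPM in Rep1 against 107 TPM in Rep2 (99.2 ± 11.2 TPM, SD, n = 2). Its neuronal paralog *AMPH* was listed at 0 in Rep1 and at 3.62 TPM in Rep2. *SYNJ1*, the lipid phosphatase that uncoats vesicles, was at 4.75 TPM in Rep1 compared with 3.70 TPM in Rep2.

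*CTBP2* encodes a transcriptional corepressor and, from another start site, RIBEYE, the main protein of the synaptic ribbon, which a value per gene does not separate. It was at 199 TPM in Rep1 versus 59.8 TPM in Rep2, and 346 bases (4.4%) of its exons overlap *ZRANB1* on the opposite strand, itself at 108 TPM in Rep1 against 11.4 TPM in Rep2. *SNPH*, encoding syntaphilin, which anchors mitochondria in axons, was listed at 0 in Rep1 and at 0.579 TPM in Rep2. The vesicular glutamate transporter *SLC17A7*, or VGLUT1, which fills vesicles of photoreceptors and bipolar cells in the retina (chromosome 19, 49379582 to 49392005), was at 204 TPM in Rep1 compared with 0.771 TPM in Rep2. That ratio of 265 rests on at least 77 and 5 reads. *SLC17A8*, or VGLUT3, was listed at 0 in Rep1 and at 0.247 TPM in Rep2. *SLC17A6*, or VGLUT2, the transporter of retinal ganglion cells, is not one of the 41 genes and was listed at 0 in both libraries.

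Across the 12 families with more than 1 member here, the same paralog led in both libraries in 7, namely *STX3*, *VAMP2*, *RIMS2*, *RAB3A*, *NAPA*, *BIN1* and *SLC17A7*. The leader differed in the synaptotagmins, synapsins, SV2 proteins, complexins and physins. These had 3 or 4 members here, whereas all 7 families with the same leader had 2, so that agreement went with family size. Sequence likeness between paralogs could let reads be assigned to either. Over aligned coding bases, identity was highest for *CPLX1* and *CPLX2*, at 83.3% with a longest shared run of 32 bases. For *SYP* and *SYPL1* it was 60.7% with a run of 10 bases, and for *SV2A* and *SV2B* 68.1% with a run of 18 bases.

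**Figure D3:**
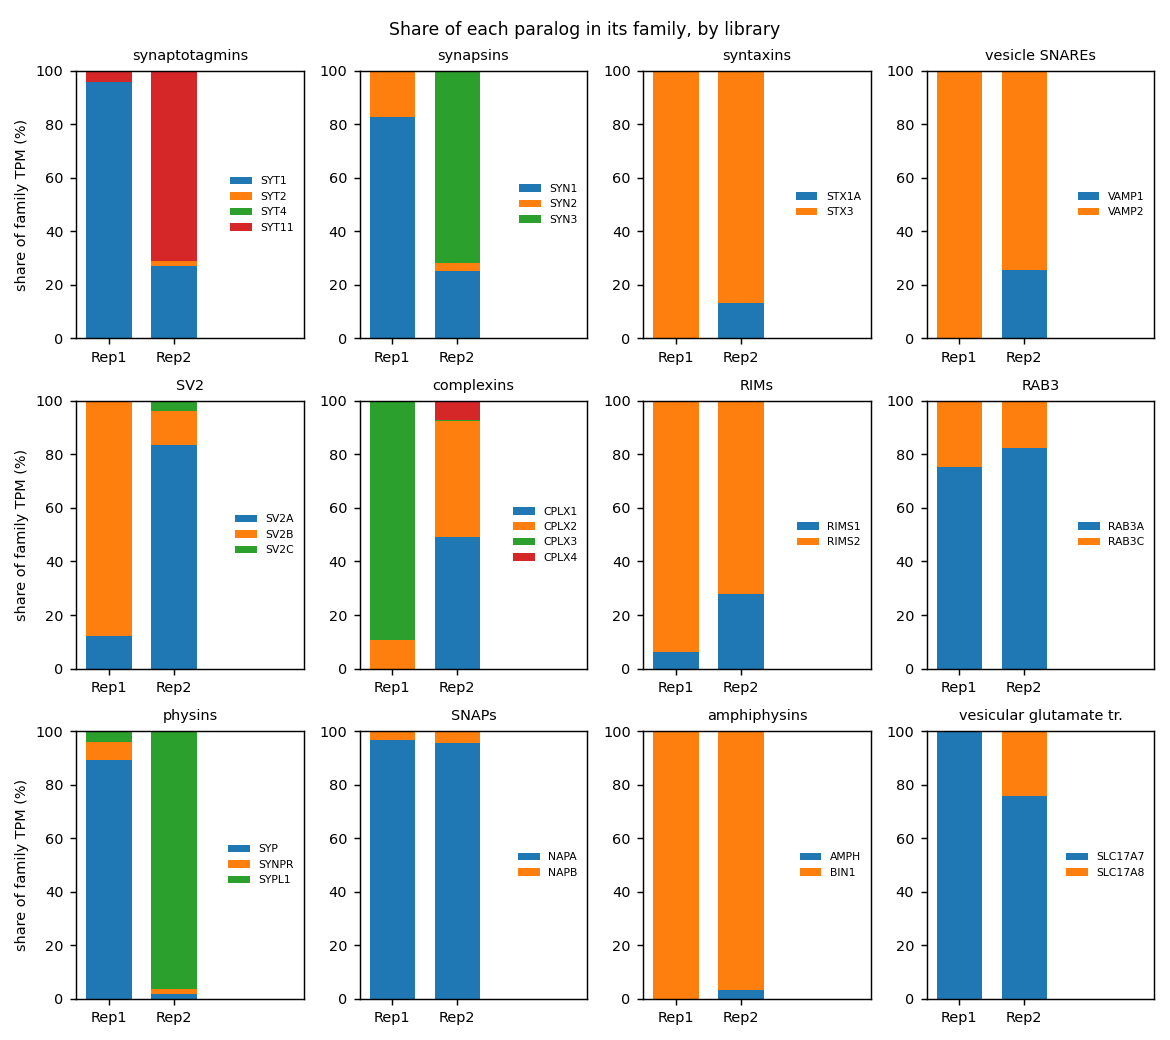
Share of each paralog in the summed TPM of its family (y axis, percent) in Rep1 and Rep2 (1 bar per library, no replicates, so no error bars) for 12 families. The synaptophysin family goes from 89.2% *SYP* in Rep1 to 96.3% *SYPL1* in Rep2, whereas *NAPA* takes 96.8% and 95.5% of its pair.

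The 5 genes given as ribbon synapse genes (*CPLX3*, *CPLX4*, *STX3*, *CTBP2* and *SLC17A7*) summed to 722 TPM in Rep1 versus 80.5 TPM in Rep2. Of them, 4 were at least 2-fold higher in Rep1, beside 14.8% of all genes, the exception being *CPLX4*. *CTBP2* (59.8 TPM) and *STX3* (19.6 TPM) made up most of the Rep2 sum, and *CTBP2* is counted in the next set as well. The 6 genes given as also used outside neurons (*NSF*, *NAPA*, *SYPL1*, *CTBP2*, *BIN1* and *SYT11*) summed to 1424 TPM in Rep1 against 662 TPM in Rep2, and were all above 0 in both. They made up most of the group's TPM in Rep2. The other 35 genes, which this choice does not show to be confined to neurons, summed to 4130 TPM in Rep1 compared with 160 TPM in Rep2, a ratio of 25.8. Of the 34 above 0, 17 (50%) were at least 2-fold higher in Rep1 and 5 (14.7%) in Rep2, beside 14.8% and 51.3% of all genes. Without the 5 genes highest in Rep1 (*SNAP25*, *VAMP2*, *SYT1*, *NSF* and *NAPA*), the sums were 1589 TPM and 442 TPM, with 15 of 35 at least 2-fold higher in Rep1.

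In the order of levels, averaged over both libraries on the log2 scale, all 39 pairs of neighbours among the 40 genes differed by less than 1 SD of a single library. Neighbours in a sorted list lie close together, and this SD, taken about 0, also holds the shift between the whole libraries. The comparison therefore cannot measure how certain the order of neighbours is, and no gene is placed above the next here. By the same SD, 303 of all 780 pairs of genes were at least 2 SDs apart. The ranks in each library also differed. The 5 highest genes were *SNAP25*, *VAMP2*, *SYT1*, *NSF* and *NAPA* in Rep1 and *NAPA*, *SYPL1*, *BIN1*, *CTBP2* and *NSF* in Rep2. Across the 40 genes, Spearman's rank correlation between the libraries was 0.566, and across all 14693 genes it was 0.719, both over genes of the same libraries and given as a description. The difference between the libraries had a rank correlation of -0.033 with GC content and 0.029 with exon length over the 40 genes, and of -0.114 and 0.172 over all genes. By GC content, 6 of 12 genes under 45% GC, 7 of 13 from 45 to 55% and 6 of 15 above were at least 2-fold higher in Rep1, next to 19.5%, 14.8% and 10.4% of all genes in the same ranges.

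Other genes of the same pathway were read from lists of 52 release genes and 20 recovery genes that hold none of the 41. Of the 49 release genes above 0, 10 (20.4%) were at least 2-fold higher in Rep1 and 22 (44.9%) in Rep2, with a median difference of -0.61, beside 14.8%, 51.3% and -1.07 for all genes. Both shares lay near those of all genes, and after scaling the counts were 16 and 14. Their sum was 1110 TPM in Rep1 versus 1295 TPM in Rep2. The highest on the mean was *VAMP3*, a vesicle SNARE of many cell types, at 38.3 TPM in Rep1 against 423 TPM in Rep2. *CASK*, a presynaptic scaffold kinase, was at 202 TPM in Rep1 compared with 8.56 TPM in Rep2, and *SNAP23*, the SNAP25 paralog of other cells, at 25.002 TPM, on at least 1 read, and 122 TPM.

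The largest differences toward Rep1 in this list were those of *CADPS*, which primes dense-core vesicles, at 193 TPM in Rep1 versus 3.49 TPM in Rep2, of *CASK*, and of *PPFIA4*, a liprin of the active zone, at 24.96 TPM and 0.852 TPM. Toward Rep2 they were those of *UNC13C*, listed at 0 in Rep1 and at 60.1 TPM in Rep2, of *SNAP29*, listed at 0 and at 25.4 TPM, and of *VAMP3*. The neuronal SNARE *SNAP25* and its paralogs *SNAP23* and *SNAP29* thus had opposite orders between the libraries, as had *VAMP2* and *VAMP3*. Not all paralogs divided in this way. *VAMP4*, of this list, was higher in Rep1, at 68.2 TPM against 18.3 TPM in Rep2, and the member *VAMP1* was higher in Rep2. Of all genes, 51.3% were at least 2-fold higher in Rep2.

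Of the 20 recovery genes, all above 0, 9 (45%) were at least 2-fold higher in Rep1 and 7 (35%) in Rep2, with a median difference of 0.50, to be read beside the same 14.8%, 51.3% and -1.07 for all genes. After scaling the counts were 13 and 3. The clathrin coat genes led by mean level. *AP2M1*, an adaptor subunit, was at 2194 TPM in Rep1 against 631 TPM in Rep2, *CLTC*, the clathrin heavy chain, at 1745 TPM and 149 TPM, and *CLTB*, a light chain, at 377 TPM and 871 TPM. *PICALM*, a clathrin assembly protein of most tissues, was at 942 TPM in Rep1 compared with 92.9 TPM in Rep2, and *CLTA*, the other light chain, at 706 TPM and 141 TPM. The largest differences toward Rep1 were in *SH3GL2*, the neuronal endophilin (25.4 TPM and 0.628 TPM), *SNAP91*, the neuronal paralog of *PICALM* (107 TPM and 6.33 TPM), and *CLTC*. Toward Rep2 they were in *SH3GL1* (listed at 0 and 30.8 TPM), *SYNJ2* (0.327 TPM, on at least 1 read, and 8.08 TPM) and *SH3GL3* (13.7 TPM and 99.2 TPM).

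Markers of other cell types also differed between the libraries, not all in the same direction, and their part in the results was not tested. Their counts are set beside 14.8% of all genes at least 2-fold higher in Rep1 and 51.3% in Rep2. Photoreceptor markers, 15 genes of which 13 were above 0 in Rep1 and 14 in Rep2, summed to 4060 TPM in Rep1 versus 32.4 TPM in Rep2, with 7 at least 2-fold higher in Rep1 and 1 in Rep2. Their highest gene was *GNAT1*, the rod transducin, which was at 2763 TPM in Rep1 against 1.56 TPM in Rep2. Markers of bipolar and amacrine cells, 16 listed genes with 12 above 0 in each library, summed to 1247 TPM and 150 TPM, with 7 at least 2-fold higher in Rep1 and 3 in Rep2. Their highest genes on the mean were *OTX2*, which photoreceptors also express, and *GAD1*. *OTX2* was at 769 TPM in Rep1 compared with 0.0633 TPM in Rep2, the second on as little as 1 read. *GAD1* was at 189 TPM and 1.35 TPM. Most of the Rep2 sum was *PCP2*, which had the opposite order, with 27.2 TPM in Rep1 against 127 TPM in Rep2.

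The 12 markers of retinal ganglion cells summed to 590 TPM in Rep1 versus 1767 TPM in Rep2, with 9 and 8 above 0. Of the 10 above 0 in a library, 2 (20%) were at least 2-fold higher in Rep1 and 3 (30%) in Rep2, beside 14.8% and 51.3% of all genes. *THY1*, which other cells of the nerve also express, was at 203 TPM in Rep1 against 1535 TPM in Rep2, *RBPMS* at 155 TPM and 99.9 TPM, and *POU4F2* was listed at 0 in both. The order of the sums rested on *THY1*, without which they were 387 TPM and 231 TPM, and *ISL1*, which some bipolar and amacrine cells also express, was at 186 TPM in Rep1 and listed at 0 in Rep2. General neuron markers, 9 listed genes all above 0, summed to 491 TPM in Rep1 compared with 275 TPM in Rep2, with 5 at least 2-fold higher in Rep1 and 1 in Rep2. Neuroendocrine markers, 6 genes with 2 above 0 in Rep1 and 5 in Rep2, summed to 15.4 TPM and 34.0 TPM, with *CHGA* listed at 0 in Rep1.

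The share at least 2-fold higher in Rep2 was 100% of the oligodendrocyte markers, 87.5% of the astrocyte markers and 62.5% of the microglia markers, beside 51.3% of all genes. All 8 oligodendrocyte markers were at least 2-fold higher in Rep2 and summed to 45999 TPM in Rep1 versus 212268 TPM in Rep2, most of it *MBP* in both. Of 8 astrocyte markers, all above 0, 7 were at least 2-fold higher in Rep2, with sums of 1111 TPM and 7456 TPM. Of 8 microglia markers, with 7 above 0 in Rep1 and 8 in Rep2, 5 were at least 2-fold higher in Rep2 and none in Rep1, with sums of 225 TPM and 469 TPM. After scaling, the numbers at least 2-fold higher in Rep1 and in Rep2 were 11 and 1 for photoreceptors, 9 and 2 for bipolar and amacrine cells, 4 and 1 for ganglion cells, 6 and 1 for neurons, 0 and 7 for oligodendrocytes, 0 and 6 for astrocytes, and 3 and 4 for microglia. Over all genes the shares on that scale were 24.4% and 37%. Since the markers and the synaptic genes come from the same 2 libraries, their levels are set side by side without a correlation.

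**Figure D4:**
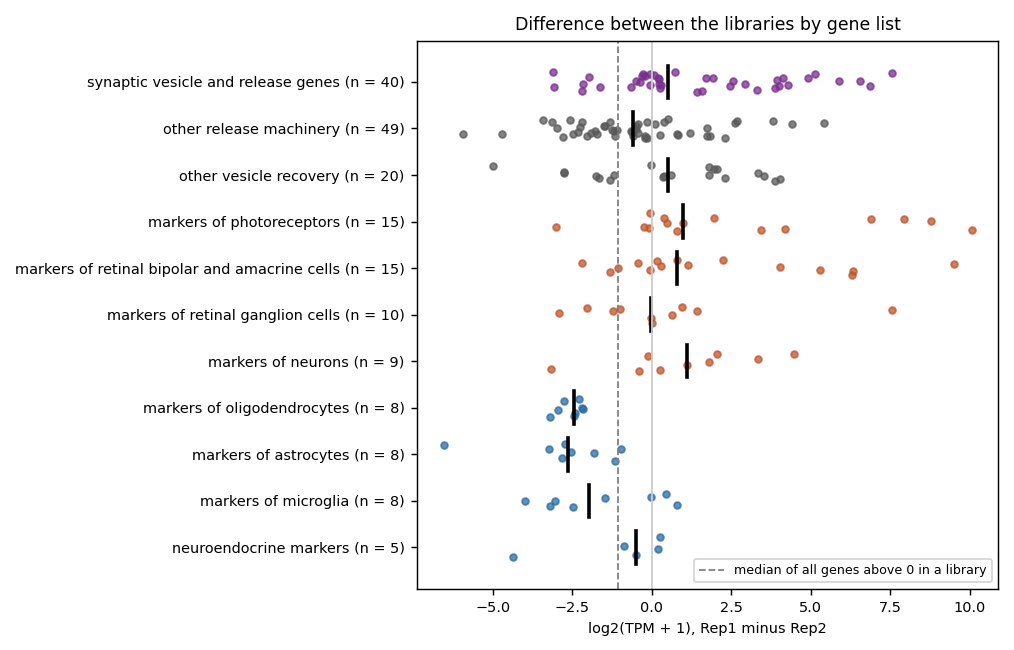
Difference between the libraries, Rep1 minus Rep2 on the log2(TPM + 1) scale, for each gene above 0 in a library, by list (1 dot per gene; black bars are medians; the dashed line is the median of all genes, -1.07; purple marks the synaptic genes, grey the other pathway genes, orange retinal and neuronal markers, blue glial and neuroendocrine markers). The synaptic vesicle and release genes have a median of 0.52, the oligodendrocyte markers -2.43 and the photoreceptor markers 0.99.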

How the data were processed

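Bulk RNA-seq of macaque optic nerve was analysed in 1 group of 2 libraries. The cDNA was made with a SMARTer low-input kit. Per the study's methods and the submitters' processing notes, Trim Galore 0.6.6 was used for trimming, STAR 2.7.1a for alignment (genome Mmul_10, RefGene models) and featureCounts 1.5.3 for gene counts. The deposited values are TPM, as the authors normalized them for gene length and library total, without pooling. The columns Rep1 and Rep2 could not be paired with single sample titles and were used as replicates of the group. TPM carries no read totals, so no counting interval or floor was computed, and a transcript that takes a large share of a library lowers all others in it.

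Levels were used as deposited. Differences were taken on log2(TPM + 1), with 2-fold as the size named, and no p-value was computed. The smallest read numbers came from writing each ratio between the libraries as whole numbers times 1 constant, within a relative tolerance of 1e-12; with the constant changed by 1 part in 10000, 5.98% of genes gave whole numbers. The SD of 1 library came from the 200 genes nearest in mean level. RefSeq annotation and sequence of Mmul_10 gave coordinates, GC content, start regions and coding sequences for all 41 genes; protein sequences were not used here. Work was done in Python 3.11 with numpy 2.4.6, pandas 2.3.3, scipy 1.17.1, Biopython 1.88 and matplotlib 3.10.9, and the steps were tested on simulated data. The members and lists were chosen with earlier results of these data known. Every member is named, with its value in each library. Of the other pathway genes, those named are the 5 highest on the mean and the 3 with the largest difference each way in each list. Of the retinal marker lists, the 2 highest genes are named. Some genes that these rules pick are not reported here. *ISL1*, *POU4F2*, *CHGA* and *SLC17A6*, named for being at 0 in a library, and the sum without *THY1* were chosen after their values were seen. The same holds for *MBP* and *PCP2*, named for their part in a sum, and for *VAMP4*, named for its order between the libraries. The alternatives tried were the geometric mean, each library alone, median-of-ratios scaling, a smaller pseudocount (0.1), a filter at a mean of 1 TPM, removal of the 10 most abundant genes from the total and a larger set of nearest genes.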

Additional observations from a re-analysis of the deposited data

How the results depend on the processing

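No paired analysis was possible because both libraries belong to the same condition. Scaling Rep1 by the median of ratios raised the median mean level of the 41 genes from 10.8 to 19.5 TPM and their summed mean level from 3188 to 6752 TPM, since it multiplies Rep1. The geometric mean lowered them to 5.22 and 1411 TPM. A pseudocount of 0.1 raised the number at least 2-fold higher in Rep2 from 6 to 10, as it widens differences of low genes. With each library alone, the median ran from 3.17 to 14.3 TPM, the sum from 822 to 5554 TPM, and the number of the 41 in the top 25% of genes from 5 in Rep2 to 17 in Rep1, against 13 on the mean. The median difference kept its sign in all 6 alternatives, from 0.27 without the 5 genes highest in Rep1 to 1.72 among those that averaged 1 TPM or more. The number at least 2-fold higher in Rep1 ran from 15 to 24. Leaving out those 5 genes, or the 6 given as also used outside neurons, was chosen after seeing the data. The depth of Rep1 limits the low genes, and a listed 0 does not show absence. For 7 values above 0 in Rep1 the bound was 3 reads or fewer, though the reads counted may be more.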
